A study of Mus musculus with 12 samples.

Results

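The integrins, laminins, syndecans and glypicans form much of the machinery by which cells attach to their matrix. Members were all probes of the normalized table whose gene symbol is that of an integrin chain (Itga or Itgb), a laminin chain (Lama, Lamb or Lamc), a syndecan (Sdc) or a glypican (Gpc). This gave 61 probes of 40 genes, among 21004 probes and 15434 gene symbols in the table. There were 40 probes of 24 integrin genes, with the related Itgb2l and Itgbl1 among them, 10 probes of 9 laminin genes, 5 probes of 4 syndecan genes and 6 probes of 3 glypican genes. All 40 symbols are also current symbols in RefSeq.

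RNA was taken from the femoral head cartilage of C57BL6 mice aged 4 to 6 weeks and measured on Illumina mouse BeadChips, on which each probe is a 50-base sequence. There were 3 arrays each of WT control, WT 4 h post injury, Mapk9 KO control and Mapk9 KO 4 h post injury. Mapk9 encodes JNK2, a c-Jun N-terminal kinase, and how the KO strain was made is not given in the sources used here. Injury was the pulling off of the femoral epiphysis. Control cartilage was snap-frozen at once and injured cartilage was first kept for 4 h in serum-free medium, so injury and culture cannot be told apart. Each array held pooled hips of several animals.

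An integrin is a pair of 1 alpha and 1 beta chain that spans the cell membrane, binds matrix outside and connects to the actin cytoskeleton inside. The alpha chain largely sets the ligand, such as collagen, laminin or fibronectin, while one set of alpha chains is used by leukocytes with the Itgb2 chain or with Itgb7. Laminins are trimers of an alpha, a beta and a gamma chain and occur in basement membranes and around chondrocytes. Syndecans are membrane-spanning and glypicans lipid-anchored carriers of heparan sulfate, which binds growth factors and matrix proteins. In cartilage, chondrocytes sense collagen and fibronectin through integrins that contain the Itgb1 chain.

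Levels are log2 values after vsn normalization, and a probe was detected on an array where its detection p-value was under 0.05. A change was called where limma gave more than a 2-fold difference together with an adjusted p under 0.05, the Benjamini-Hochberg adjustment covering the whole table. Probes of one gene are told apart here by the base of the transcript record at which they start. Between 16833 and 18530 probes of the table were detected per array, and between 44 and 55 of the 61 members. The Mapk9 probe at base 4211 read 10.88, 10.90 and 10.50 on the WT control arrays and 9.14, 9.28 and 9.15 on the KO control arrays. It was detected on every KO array, and it was lower in KO controls by a log2 difference of -1.57 (adjusted p = 0.0151, and 0.061 with the replicate number as a block) and in injured KO by -1.57 (adjusted p = 0.00485). The Mapk9 probe at base 900 was detected on all 3 WT control arrays, on 1 of 3 injured WT arrays and on no KO array. Its level was at least 1.92-fold lower in KO controls (adjusted p = 0.00244, and 0.019 with the block) and was also called lower in injured KO (adjusted p = 0.00892), where the bound leaves no fold to state. All 12 measured chondrocyte markers were detected on all 12 arrays. Their mean ranged from 10.65 to 11.20 in WT controls and from 12.10 to 12.31 in injured WT, and from 10.57 to 11.23 in KO controls and from 12.05 to 12.29 in injured KO. Of these markers 7 were called higher and 1 lower in WT and 8 higher in KO. Here and below a marker counted where any of its probes was called, while the means use each gene's brightest probe. At the brightest probes no chondrocyte marker was called lower in either genotype. The part of these markers in the changes of Itga3, Itga5 and the other members was not tested. The mean of 15 skeletal muscle markers ranged from 10.77 to 12.59 in WT controls and from 7.94 to 10.0006 in injured WT, and from 12.66 to 13.02 in KO controls and from 8.35 to 9.62 in injured KO. In bulk tissue, fewer cells of one type and less RNA per cell cannot be told apart.

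Post injury, the attachment genes did not move as one group. In WT cartilage 5 genes rose (Itga3, Itga5, Itgal, Itgb2l and Lamb3) and 6 fell (Itgad, Itgb6, Itgbl1, Lama3, Sdc1 and Sdc2), with no glypican called. In Mapk9 KO cartilage the same 5 genes rose, and 7 fell (Gpc3, Itgad, Itgae, Itgav, Itgb6, Itgbl1 and Sdc2). In probes, 13 of 61 members (21.3%) were called in WT, 7 higher and 6 lower, against 14.7% of all probes of the table. In KO, 19 (31.1%) were called, 7 higher and 12 lower, against 18.7% of all probes. The background was 7.55% higher and 7.14% lower in WT, and 9.59% higher and 9.14% lower in KO. The median log2 fold change of the 61 members was -0.18 in WT and -0.17 in KO, against -0.02 over all probes in each. Of the called probes, 11 were called in both genotypes and all 11 in the same direction, with 2 called in WT alone and 8 in KO alone. The same count was not made over all probes, so this agreement cannot be called particular to the members. A call in 1 genotype alone does not show a difference between genotypes, and that difference was tested directly, as given further on.

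The calls depended on the normalization and the test. With quantile normalization without background correction, which called 5.43% of all probes in WT and 8.36% in KO, 8 of the WT calls did not hold, those of Itga5 at base 3860, Itgad, Itgal, Itgb2l at base 1225, Itgb6, Lama3, Lamb3 and Sdc1. In KO 10 did not, those of Gpc3 at base 1787, both Itgae probes, Itgal, Itgav, Itgb6 at bases 4087 and 4579, both Itgbl1 probes and Lamb3. Most of these kept an adjusted p under 0.05 and fell under the fold limit. With the t-test, which called 7.73% and 15.9% of all probes, the same WT calls apart from Itgal missed the threshold, and in KO those of Itgae at base 3775, Itgav, Itgb6 at base 4087 and Itgbl1 at base 19.

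**Figure D1:**
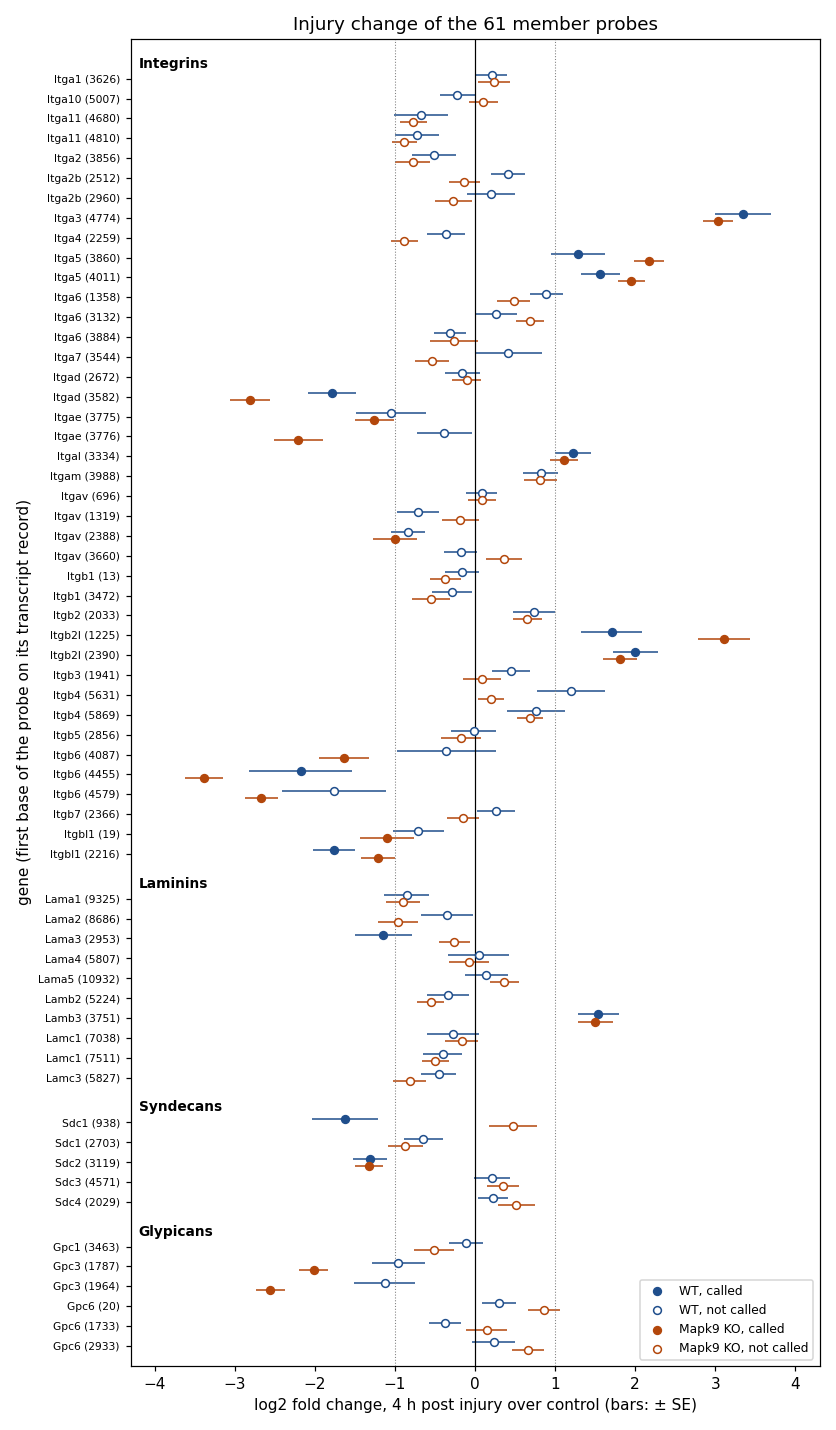
Log2 fold change 4 h post injury over control (x axis, bars are ± SE of the limma fit) for each of the 61 member probes (y axis, gene and first base of the probe), with 3 arrays per group, in WT (blue) and Mapk9 KO (orange). Filled points are called, and the dotted lines mark a fold change of 2; Itga3, Itga5, Itgal, Itgb2l and Lamb3 lie to the right in both genotypes and Itgb6, Itgad, Itgbl1 and Sdc2 to the left.

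Of the laminin-binding alpha chains, Itga3 rose and Itga6 and Itga7 were not called. Itga3 pairs with Itgb1 and binds laminins, and it had the largest rise of the members in WT. Its probe starts at base 4774, and its first 30 bases are printed to identify it.
Itga3 (4774): cacggtactataacaacttccccgatcctg
Itga3 read 6.98, 5.50 and 6.74 on the WT control arrays and 9.50, 9.91 and 9.84 on the injured WT arrays. In Mapk9 KO it read 6.10, 6.71 and 6.40 in controls and 9.50, 9.42 and 9.39 post injury. Every injured array lay above every control array, and WT control replicate 2 was the lowest and the only array without detection. The log2 fold change was 3.34 (SE 0.35, adjusted p = 0.000131 by limma) in WT and 3.03 (SE 0.19, adjusted p = 1.09e-06) in KO. The 3 probes of Itga6, the alpha chain that pairs with Itgb1 or Itgb4 on laminin, differed from each other. The Itga6 probe at base 1358 had a log2 fold change of 0.89 in WT (adjusted p = 0.00985), under the fold limit, and the other probes of the gene had 0.27 and -0.31. Without injured WT replicate 1 the first passed the limit (log2 fold change 1.01, adjusted p = 0.0154). In KO the mean level went from 6.63 to 7.11 at base 1358, from 6.03 to 6.71 at base 3132 and from 6.71 to 6.45 at base 3884, and none was called. The log2 fold change of Itga7, a muscle laminin receptor chain, was 0.41 (SE 0.42, adjusted p = 0.516) in WT and -0.54 (SE 0.22, adjusted p = 0.0709) in KO.

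Of the alpha chains that bind RGD sequences, as in fibronectin, Itga5 rose at both of its probes in both genotypes. Itga5 with Itgb1 is the classical fibronectin receptor. The Itga5 probe at base 4011 read 8.87, 7.99986 and 8.56 in WT controls and 10.02, 10.11 and 9.99 in injured WT, and 8.43, 8.42 and 8.26 in KO controls and 10.48, 10.22 and 10.26 in injured KO. No control array reached any injured array, and the log2 fold change was 1.56 (SE 0.24, adjusted p = 0.00134) in WT and 1.95 (SE 0.17, adjusted p = 9.15e-06) in KO. At base 3860 the levels were 6.99, 5.80 and 7.17 in WT controls and 7.68, 7.97 and 8.18 in injured WT. The corresponding KO levels were 6.51, 6.30 and 6.56, and 8.83, 8.36 and 8.71. This second probe gave a log2 fold change of 1.29 (SE 0.34, adjusted p = 0.0191) in WT and 2.18 (SE 0.19, adjusted p = 8.56e-06) in KO. Its WT call was lost without WT control replicate 2 (log2 fold change 0.86), without injured WT replicate 2 (adjusted p = 0.0558) and without injured WT replicate 3 (adjusted p = 0.0669), while the probe at base 4011 kept its call under each alternative tried.

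Itgav, the alpha chain shared by several RGD-binding receptors, has 4 probes, of which only the probe at base 2388 was called, and only in KO. In KO it read 7.26, 7.57 and 6.49 in controls and 5.92, 6.46 and 5.93 post injury, so the third control array lay just above the highest injured array. The log2 fold change was -1.003 (SE 0.28, adjusted p = 0.0148), which sits at the fold limit, and in WT it was -0.84 (SE 0.21, adjusted p = 0.0157). The KO call was lost without KO control replicate 1 (log2 fold change -0.93), KO control replicate 2 (-0.77), injured KO replicate 1 (-0.91) or injured KO replicate 3 (-0.92). The other 3 Itgav probes had log2 fold changes from -0.71 to 0.08 in WT and from -0.18 to 0.36 in KO, and none was called. For Itga2b, the platelet chain, neither probe was called, with log2 fold changes of 0.41 and 0.20 in WT and -0.14 and -0.27 in KO.

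None of the 4 collagen-binding alpha chains was called. Itga10, the chain typical of chondrocytes, read 11.94, 11.41 and 11.43 in WT controls and 11.31, 11.53 and 11.29 post injury. The groups overlapped, with a log2 fold change of -0.22 (SE 0.22, adjusted p = 0.505) in WT and 0.10 (SE 0.18, adjusted p = 0.702) in KO. Itga11, a collagen receptor chain of fibroblasts and other mesenchymal cells, had log2 fold changes of -0.72 and -0.68 at its 2 probes in WT and -0.88 (adjusted p = 0.0014) and -0.77 (adjusted p = 0.00369) in KO, all under the fold limit, which the probe at base 4680 passed in WT without WT control replicate 2 (-1.06, adjusted p = 0.014). Itga2 gave -0.51 in WT and -0.78 (adjusted p = 0.0161) in KO, and Itga1 gave 0.21 and 0.23. Itga4, which binds fibronectin and VCAM-1 on leukocytes, had a log2 fold change of -0.36 in WT and -0.88 (adjusted p = 0.00184) in KO.

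**Figure D2:**
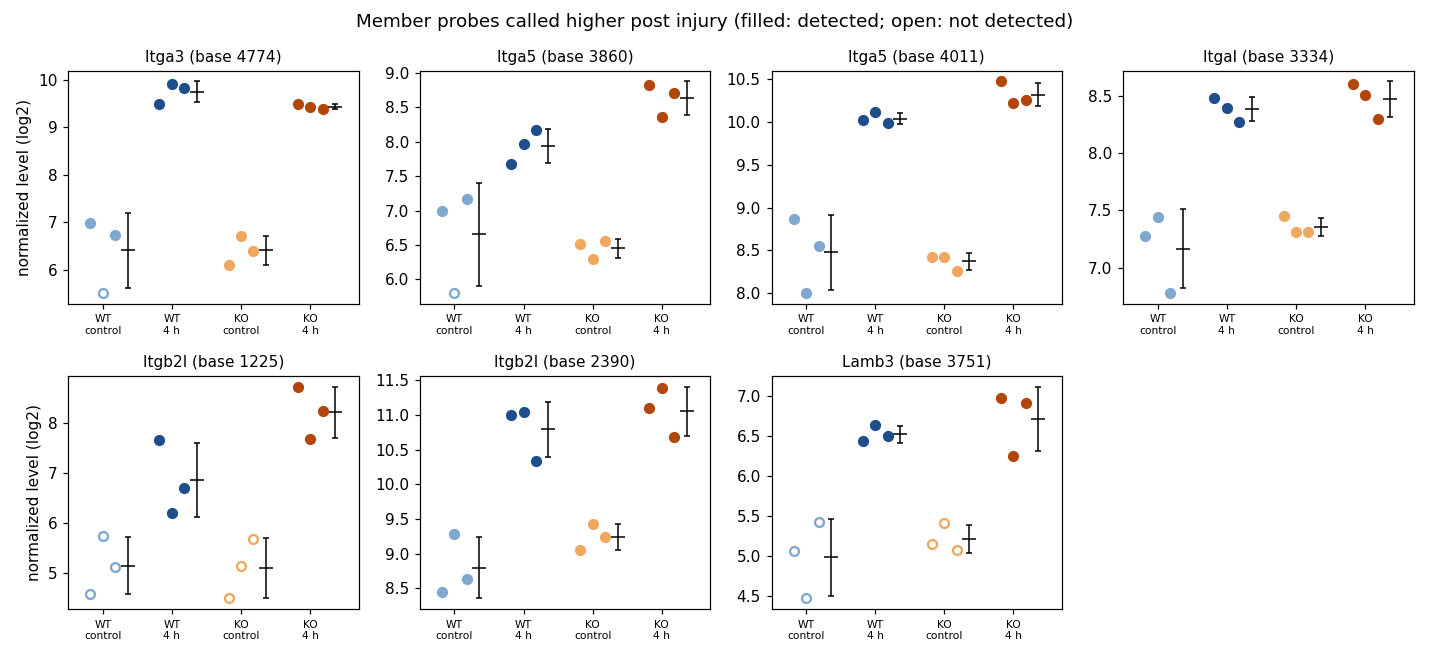
Normalized log2 level (y axis) on each of the 12 arrays for the 7 member probes called higher post injury, with 3 arrays per group; filled points were detected, open points were not, and the black bars are the mean ± SD. In all 7 panels the injured arrays lie above the control arrays of the same genotype, and the Itgb2l probe at base 1225 and the Lamb3 probe were undetected on every control array. The probes were chosen for being called higher on these same arrays, so this separation adds no support to the calls.

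The leukocyte integrins moved in different directions. Itgal, the alpha chain of LFA-1 on lymphocytes and other leukocytes, rose, while Itgad, known from macrophages, fell in both genotypes. Itgae, the chain of CD103 on intraepithelial T cells and some dendritic cells, was called lower in KO at dim probes. Itgam, the CD11b chain of neutrophils and macrophages, had a log2 fold change of 0.82 in WT (adjusted p = 0.0198) and 0.82 in KO (adjusted p = 0.00882), below the fold limit.

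Itgal read 7.27, 7.44 and 6.78 in WT controls and 8.48, 8.40 and 8.27 in injured WT, with 7.45, 7.31 and 7.31 in KO controls and 8.61, 8.50 and 8.30 in injured KO. The groups did not overlap, and the log2 fold change was 1.22 (SE 0.22, adjusted p = 0.00336) in WT and 1.11 (SE 0.17, adjusted p = 0.000475) in KO. Quantile normalization alone gave 0.82 and 0.76, under the fold limit. Itgb2, the beta chain that pairs with Itgal, Itgam and Itgad, was detected on 1 of 3 WT control arrays and on all injured arrays. Its log2 fold change was 0.74 (SE 0.26, adjusted p = 0.0632) in WT and 0.65 (SE 0.18, adjusted p = 0.0145) in KO, not called in either.

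Itgb2l, a beta chain relative of Itgb2 known from neutrophils under the name pactolus, rose at both probes. The Itgb2l probe at base 2390 read 8.45, 9.29 and 8.64 in WT controls and 11.01, 11.04 and 10.34 in injured WT, and 9.05, 9.43 and 9.24 in KO controls and 11.09, 11.39 and 10.68 in injured KO. All injured arrays were above all control arrays, with a log2 fold change of 2.00 (SE 0.28, adjusted p = 0.000745) in WT and 1.81 (SE 0.21, adjusted p = 7.96e-05) in KO. At base 1225 the probe was undetected on all 6 control arrays and read 7.66, 6.20 and 6.71 in injured WT and 8.71, 7.69 and 8.24 in injured KO. Where a group was undetected, its level is only a bound, and the change is given as at least so many fold. The bound compares the mean of the other group with the undetected arrays after raising any value below that array's dimmest detected probe to that probe's level. By that bound the probe rose at least 2.01-fold in WT (adjusted p = 0.00953) and at least 4.86-fold in KO (adjusted p = 3.24e-05). The mean of 8 measured neutrophil markers ranged from 12.45 to 13.14 in WT controls and from 13.56 to 13.83 in injured WT, and from 12.87 to 13.28 and from 13.32 to 13.77 in KO. Of those 8 markers 5 were called higher in WT and 4 in KO at any of their probes. At each gene's brightest probe, which the mean uses, Elane, Ngp and Prtn3 were called higher in WT and Elane and Ngp in KO. The part of these markers in the Itgb2l, Itgal and Itgb2 levels was not tested.

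Itgad has 2 member probes, and a further probe of the same gene ID is listed as LOC381924 and therefore falls outside the symbol rule. The first 30 bases of each are shown because the Itgad probe at base 2672 differed from the other two.
Itgad (2672): gggccagcgcaagcagtgagaataataagc
Itgad (3582): ggcatgggaacaagttctcttcagctctgg
LOC381924 (1991): ccggccaggcagattccaaccatgagactc
The Itgad probe at base 3582, which the array annotation gives as common to the gene's transcripts, read 6.61, 7.58 and 6.55 in WT controls and 4.75, 5.32 and 5.30 in injured WT. In KO it read 6.87, 7.28 and 7.73 in controls and 4.14, 4.53 and 4.80 post injury. It was detected on every control array and on no injured array, and it fell at least 2.10-fold in WT (adjusted p = 0.00213) and at least 2.70-fold in KO (adjusted p = 1.09e-05). The Itgad probe at base 2672, annotated as specific to 1 isoform, had a log2 fold change of -0.16 (SE 0.22, adjusted p = 0.641) in WT and -0.10 (SE 0.18, adjusted p = 0.695) in KO. All its values lay between 5.48 and 6.21, close to the lowest values of detected probes, which were 5.62 to 6.05. The mean of the 10 macrophage markers ranged from 9.11 to 9.43 in WT controls and from 8.19 to 8.78 in injured WT, and from 9.19 to 9.37 and from 8.05 to 8.22 in KO. Of these markers 7 were called lower and 2 higher in WT, and 8 lower and 2 higher in KO, and their part in the Itgad change was not tested.

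The 2 Itgae probes share 49 of their 50 bases, set in capitals within the first 30 bases, so they measure almost the same stretch of transcript and are not independent.
Itgae (3775): aGCACGGTTCCCAGTTTGCCATGCGTTTTG
Itgae (3776): GCACGGTTCCCAGTTTGCCATGCGTTTTGA
Both were dim. Itgae at base 3776 read 4.57, 4.10 and 5.55 in WT controls and 4.65, 3.98 and 4.45 post injury, without detection on any WT array. In KO it read 5.05, 6.00 and 6.11 in controls, 2 of them detected, and 3.23, 3.28 and 4.03 post injury, none detected. The fitted log2 fold change was -0.38 (SE 0.35, adjusted p = 0.465) in WT and -2.20 (SE 0.30, adjusted p = 0.000235) in KO, where the bound leaves no fold to state. At base 3775 the fitted values were -1.05 (SE 0.43, adjusted p = 0.105) in WT and -1.26 (SE 0.24, adjusted p = 0.00218) in KO, the latter at least 1.02-fold. Neither KO call held with normexp background correction and quantile normalization (log2 fold change -0.90 at base 3776 and -0.74 at base 3775) or with quantile normalization alone (-0.48 and -0.33), and that at base 3775 also missed the threshold with the t-test (adjusted p = 0.051). With the replicate number as a block, the Itgae probe at base 3775 was also called in WT (adjusted p = 0.00775), and so it was without injured WT replicate 3 (adjusted p = 0.0318). The T cell markers Cd3d, Cd3e, Cd3g and Nkg7 had a mean between 6.13 and 6.61 in WT controls and between 7.20 and 7.54 in injured WT, and between 6.67 and 6.88 in KO controls and between 6.85 and 7.01 in injured KO. Of these 4 markers 1 was undetected on every array, and their part in the Itgae levels was not tested. Nkg7 was the only T cell marker called, with log2 fold changes of 2.44 in WT and 1.49 in KO. Cd3d, detected on 11 arrays, had 0.98 in WT and -0.06 in KO, and Cd3e and Cd3g were detected on 0 and 3 of the 12 arrays.

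Among the integrin beta chains proper, the common Itgb1 chain was not called and Itgb6 fell. Itgb1 at base 13 read 9.88, 9.90 and 9.59 in WT controls and 9.46, 9.55 and 9.88 in injured WT, and its log2 fold change was -0.16 (SE 0.21, adjusted p = 0.615) there and -0.37 (SE 0.20, adjusted p = 0.162) in KO. Itgb3, Itgb5 and Itgb7 had log2 fold changes of 0.45, -0.02 and 0.27 in WT and 0.08, -0.17 and -0.15 in KO. For Itgb4, the partner of Itga6 in hemidesmosomes, the probe at base 5631 had a log2 fold change of 1.20 (SE 0.42, adjusted p = 0.0641) in WT, with WT control replicate 2 undetected at 5.04 against 7.03 and 6.58 on the other control arrays. It was called without WT control replicate 1 (log2 fold change 1.61, adjusted p = 0.0283), with normexp (adjusted p = 0.0432), with array medians subtracted (adjusted p = 0.0459), with the fit limited to probes detected on at least 3 arrays (adjusted p = 0.0411) and in the fit of all 12 arrays (adjusted p = 0.0206), and in KO its log2 fold change was 0.20 (adjusted p = 0.372). The Itgb4 probe at base 5869 had 0.76 (adjusted p = 0.161) in WT, called without WT control replicate 1 (1.15, adjusted p = 0.0394), and 0.68 (adjusted p = 0.00781) in KO.

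Itgb6 pairs with Itgav, and that receptor is known from epithelia for activating latent TGF-beta. The Itgb6 probe at base 4455 read 6.26, 5.77 and 8.84 in WT controls and 4.34, 4.65 and 5.34 in injured WT, where it was undetected. It read 8.48, 8.14 and 8.24 in KO controls and 4.97, 5.32 and 4.42 in injured KO, also undetected. It fell at least 2.17-fold in WT (fitted log2 fold change -2.18, SE 0.65, adjusted p = 0.0328) and at least 5.38-fold in KO (fitted -3.38, SE 0.23, adjusted p = 1.87e-06). Among the WT controls, replicate 3 lay with the KO controls and replicates 1 and 2 were lower. The size of the WT fall therefore depends on replicate 3. The WT call was lost without injured WT replicate 1 (adjusted p = 0.101) or injured WT replicate 2 (adjusted p = 0.0838), with normexp (adjusted p = 0.0861), with quantile normalization alone (log2 fold change -0.94, adjusted p = 0.127) and with the t-test (adjusted p = 0.23). At base 4579 Itgb6 had a fitted log2 fold change of -1.76 (SE 0.65, adjusted p = 0.0721) in WT and fell at least 1.08-fold in KO (fitted -2.67, adjusted p = 4.65e-06). At base 4087 the fitted values were -0.36 (SE 0.62, adjusted p = 0.72) and -1.63 (SE 0.31, adjusted p = 0.00184), with detection on 1 array only, and the KO call did not hold with normexp (-0.72). Without WT control replicate 2, the probe at base 4579 was called in WT too (fitted log2 fold change -2.40, adjusted p = 0.00857), as it was in the fit of all 12 arrays (adjusted p = 0.0279).

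The skeletal muscle marker mean was 11.45, 10.77 and 12.59 on the WT control arrays, in the same order as Itgb6. On those arrays Gpc3 at base 1964 read 8.10, 7.08 and 8.28, again lowest on replicate 2 and highest on replicate 3. This order was not particular to falling members. Itga5 at base 3860, which rose post injury, read 6.99, 5.80 and 7.17 there, and Itga7, which was not called, read 6.44, 5.17 and 7.23. Of the 15 muscle markers, 13 were called lower post injury in WT and all 15 in KO. The part of muscle in the Itgb6 and Gpc3 changes was not tested.

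**Figure D3:**
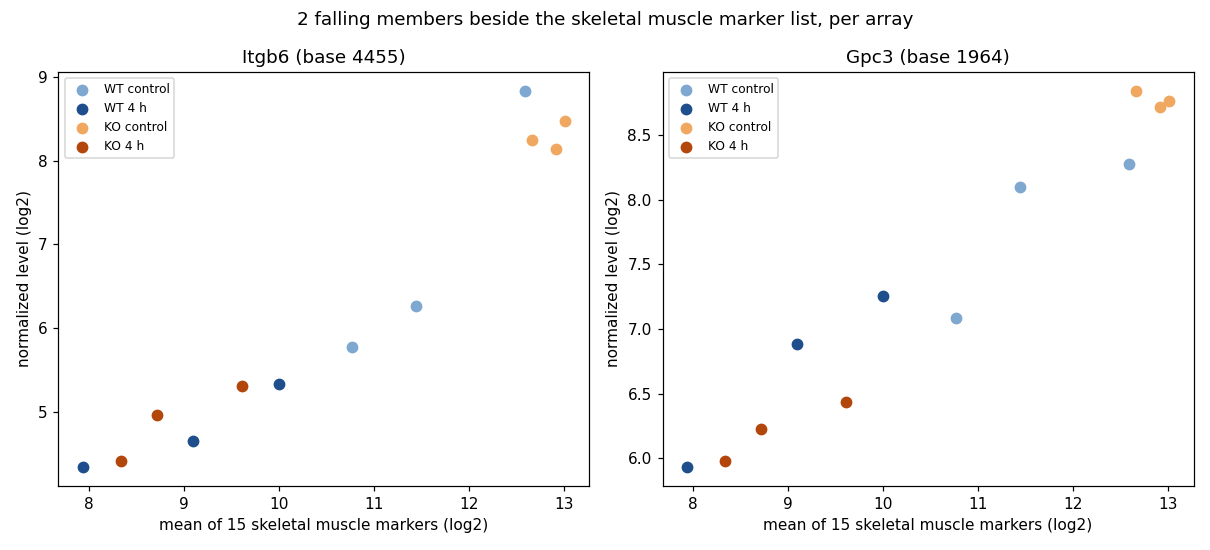
Normalized log2 level of the Itgb6 probe at base 4455 and the Gpc3 probe at base 1964 (y axes) against the mean log2 level of 15 skeletal muscle markers (x axes), 1 point for each of the 12 arrays, coloured by group. The KO controls and WT control replicate 3, with muscle means from 12.59 to 13.02, hold the 4 highest Itgb6 levels, and all 6 injured arrays lie at muscle means of 10.0006 or less.

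Itgbl1, a secreted protein with the cysteine-rich repeats of integrin beta chains but no integrin partner of its own, fell. At base 2216 it read 9.94, 9.47 and 9.50 in WT controls and 7.50, 8.35 and 7.77 in injured WT, with 8.75, 9.34 and 9.45 in KO controls and 7.88, 7.97 and 8.07 in injured KO. The groups did not overlap, and the log2 fold change was -1.76 (SE 0.26, adjusted p = 0.000991) in WT and -1.21 (SE 0.21, adjusted p = 0.00107) in KO. The dimmer Itgbl1 probe at base 19 was undetected on all injured arrays, had a fitted log2 fold change of -0.71 (adjusted p = 0.137) in WT and fell at least 1.26-fold in KO (adjusted p = 0.0253), where the groups overlapped. That KO call was lost without KO control replicate 1 (adjusted p = 0.0693), KO control replicate 3 (adjusted p = 0.0502), injured KO replicate 1 (adjusted p = 0.0663) or injured KO replicate 2 (adjusted p = 0.0786), and with normexp (adjusted p = 0.0506). In WT it was called without WT control replicate 2 (log2 fold change -1.04, adjusted p = 0.0156).

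Among the laminins, Lamb3 rose in both genotypes, Lama3 fell in WT, and the other 7 genes were not called. Lama3 and Lamb3 are chains of epithelial laminin. Lamb3 was undetected on all 6 control arrays and read 6.43, 6.64 and 6.49 in injured WT and 6.98, 6.25 and 6.91 in injured KO. It rose at least 1.60-fold in WT (adjusted p = 0.00192) and at least 1.72-fold in KO (adjusted p = 0.000384). With quantile normalization alone the fitted log2 fold changes were 0.54 and 0.56, under the fold limit, and the WT call missed the threshold with the t-test (adjusted p = 0.0503). Lama3 read 7.13, 5.61 and 6.24 in WT controls and 5.57, 4.89 and 5.08 post injury, undetected there, and fell at least 1.40-fold (adjusted p = 0.038). In KO it read 5.83, 6.02 and 6.33 in controls and 5.85, 5.95 and 5.61 post injury, overlapping groups with a log2 fold change of -0.26 (SE 0.19, adjusted p = 0.33). The Lama3 call in WT was lost without WT control replicate 1 (adjusted p = 0.119) or 3 (adjusted p = 0.0662) and without injured WT replicate 2 (adjusted p = 0.126) or 3 (adjusted p = 0.101). It was also lost with normexp (adjusted p = 0.0756) and with the label code number as a block (adjusted p = 0.0619).

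Lamc1, the gamma chain of most laminins, had log2 fold changes of -0.40 (adjusted p = 0.253) and -0.28 (adjusted p = 0.575) at its 2 probes in WT and -0.49 (adjusted p = 0.0432) and -0.17 (adjusted p = 0.557) in KO. Lamb2 gave -0.34 in WT and -0.55 (adjusted p = 0.027) in KO. Of the other alpha chains, Lama2 of muscle basement membranes had -0.35 in WT and -0.96 (adjusted p = 0.0112) in KO, and Lama1 had fitted values of -0.85 (adjusted p = 0.0497) and -0.90 (adjusted p = 0.00645). Lama1 was undetected on all 6 injured arrays, where the bound leaves no fold to state in WT and a fall of at least 1.01-fold in KO. Lama2 passed the fold limit in KO without KO control replicate 2 (log2 fold change -1.26) and without injured KO replicate 1 (-1.01). The fitted value of Lama1 passed it in WT without WT control replicate 3 (-1.03), and in KO without KO control replicate 3 (-1.07) or injured KO replicate 2 (-1.01). Lama4, Lama5 and Lamc3 had log2 fold changes of 0.04, 0.14 and -0.46 in WT and -0.07, 0.36 and -0.82 in KO.

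Of the syndecans, Sdc2 fell in both genotypes, Sdc1 fell at 1 probe in WT, and Sdc3 and Sdc4 were not called. Sdc2, a syndecan of mesenchymal cells, read 11.90, 11.43 and 11.39 in WT controls and 10.13, 10.39 and 10.26 in injured WT, and 11.37, 11.61 and 11.22 in KO controls and 10.03, 10.04 and 10.18 in injured KO. All 6 control arrays lay above all 6 injured arrays. The log2 fold change was -1.31 (SE 0.21, adjusted p = 0.00172) in WT and -1.32 (SE 0.18, adjusted p = 0.000183) in KO, and the genotypes differed by -0.01 (SE 0.26) in this change. Sdc4, a partner of the fibronectin receptor in focal adhesions, had log2 fold changes of 0.22 (adjusted p = 0.44) and 0.52 (adjusted p = 0.0998), and Sdc3, the syndecan long known from cartilage, had 0.21 (adjusted p = 0.531) and 0.35 (adjusted p = 0.194).

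Sdc1, the main epithelial and plasma cell syndecan, has 2 probes that did not move alike. Their first 30 bases, with that of Sdc2, are as follows.
Sdc1 (938): gcccccggtggacgaaggagccacaggtgc
Sdc1 (2703): ggtttaagtaattgggactctagcacatct
Sdc2 (3119): agctgcacaatgcccctcaattacggaggc
The Sdc1 probe at base 938 read 7.39, 5.96 and 7.23 in WT controls and 5.79, 4.49 and 5.42 in injured WT, with no detection post injury, and fell at least 2.02-fold (fitted log2 fold change -1.63, SE 0.41, adjusted p = 0.0169). In KO it read 5.91, 6.26 and 5.53 in controls and 6.44, 5.72 and 6.96 post injury, an overlap with a log2 fold change of 0.47 (SE 0.30, adjusted p = 0.252). The difference between genotypes in this change was not significant over all probes (unadjusted p = 0.00302, adjusted p = 0.312), and its size cannot be given, since the probe was undetected on the injured WT arrays and on 2 of 3 KO control arrays. The Sdc1 probe at base 2703 had log2 fold changes of -0.64 (SE 0.24, adjusted p = 0.0758) in WT and -0.87 (SE 0.22, adjusted p = 0.00947) in KO, and a difference between genotypes of -0.22 (SE 0.33). The WT call at base 938 was lost without WT control replicate 1 (adjusted p = 0.0731), WT control replicate 3 (adjusted p = 0.0531) or injured WT replicate 2 (adjusted p = 0.0623). At base 2703 the KO value passed the fold limit without injured KO replicate 3 (log2 fold change -1.08).

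**Figure D4:**
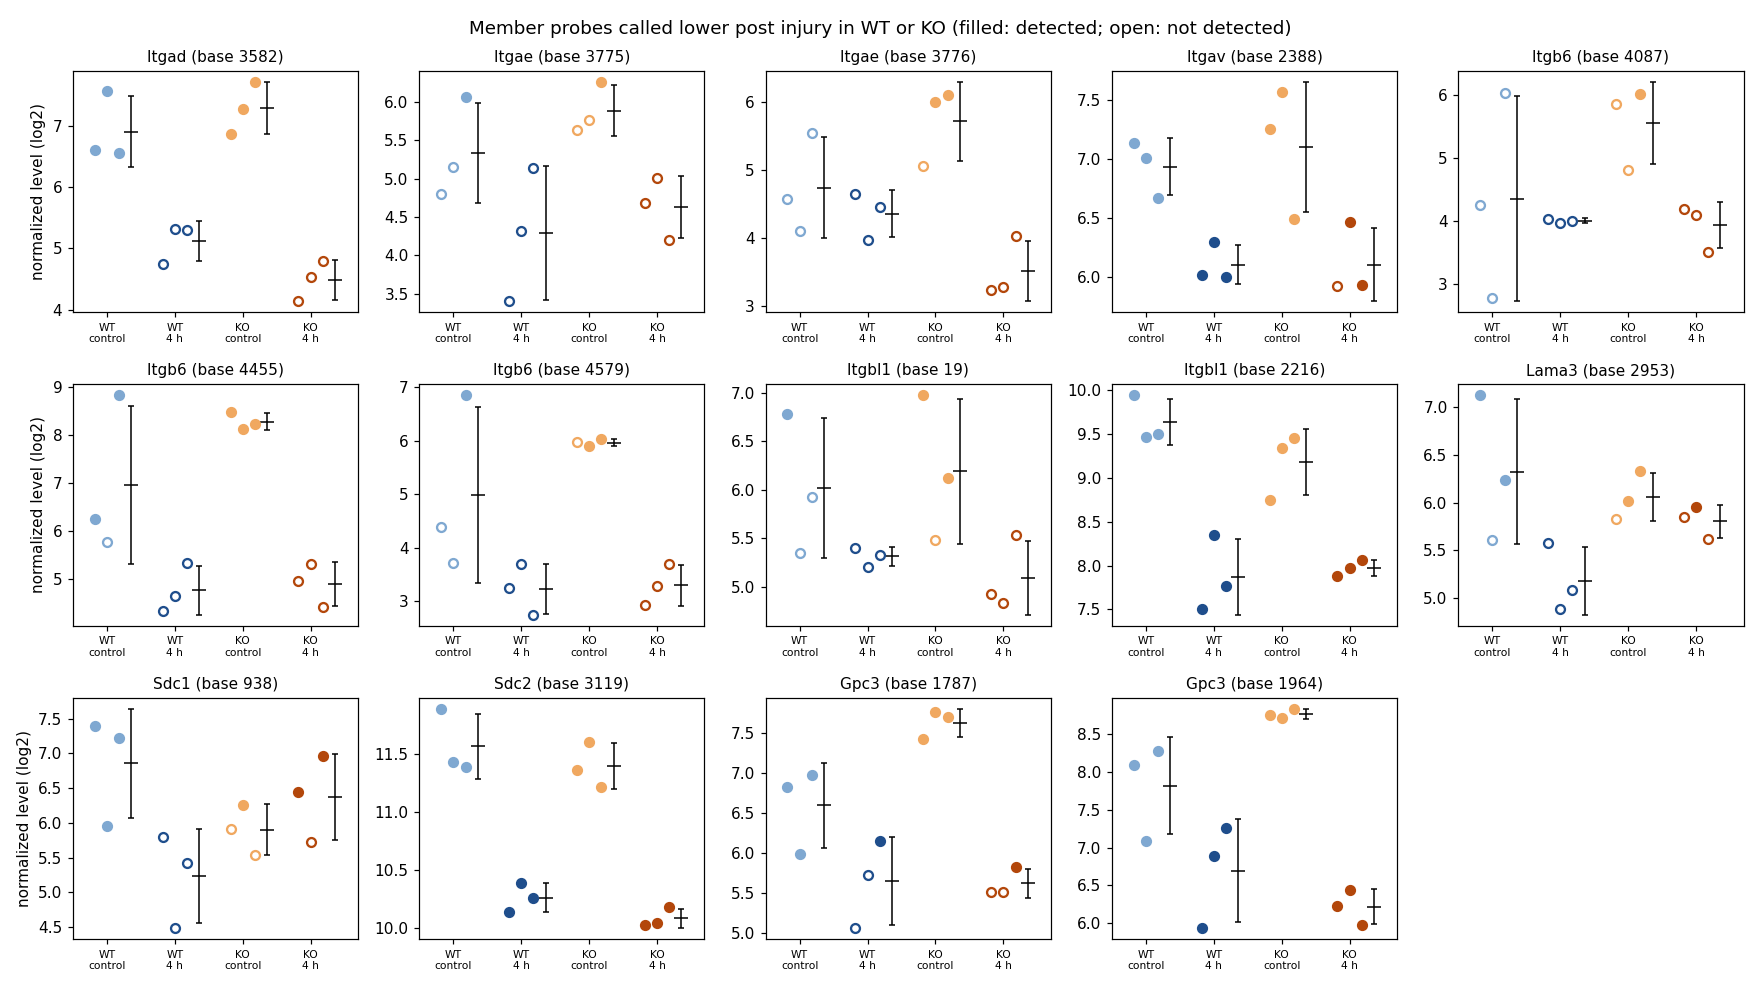
Normalized log2 level (y axis) on each of the 12 arrays for the 14 member probes called lower post injury in WT or Mapk9 KO, with 3 arrays per group; filled points were detected, open points were not, and the black bars are the mean ± SD. Sdc2 and Itgbl1 at base 2216 were detected on every array and separate the injured from the control arrays, whereas most of the other panels end below detection post injury and the WT control arrays of Itgb6 spread from 5.77 to 8.84 at base 4455. The probes were chosen for being called lower on these same arrays, so such separation adds no support to the calls.

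Of the glypicans, Gpc3 fell in KO, and Gpc1 and Gpc6 were not called. Gpc3 restrains hedgehog signalling and body growth. Gpc3 at base 1964 read 8.10, 7.08 and 8.28 in WT controls and 5.93, 6.89 and 7.26 in injured WT, so the groups overlapped. In KO it read 8.76, 8.71 and 8.84 in controls and 6.23, 6.44 and 5.98 post injury, far apart. The log2 fold change was -1.13 (SE 0.38, adjusted p = 0.0558) in WT and -2.56 (SE 0.18, adjusted p = 2.07e-06) in KO. The Gpc3 probe at base 1787 gave -0.96 (SE 0.33, adjusted p = 0.0593) and -2.02 (SE 0.18, adjusted p = 1.24e-05). In WT, Gpc3 at base 1964 was called with the replicate number as a block (adjusted p = 0.0488) and with the label code number as a block (adjusted p = 0.041). It was also called with only probes detected on at least 3 arrays fitted (adjusted p = 0.0356), with the highest-mean probe per gene (adjusted p = 0.0463) and in the fit of all 12 arrays (adjusted p = 0.0185). The same held without WT control replicate 2 (adjusted p = 0.00797) and without injured WT replicate 3 (adjusted p = 0.0386). The probe at base 1787 was likewise called without either of these arrays (adjusted p = 0.0104 and 0.0391). Gpc1, which read 13.28 to 13.85 in WT controls and 13.49 to 13.52 in injured WT, had log2 fold changes of -0.12 (SE 0.21, adjusted p = 0.735) and -0.51 (SE 0.25, adjusted p = 0.138). The 3 Gpc6 probes had -0.37 to 0.30 in WT and 0.14 to 0.86 in KO, and the probe at base 20 reached an adjusted p of 0.00552 in KO below the fold limit. The Gpc6 probes at bases 20 and 2933 carry the name LOC100043822 in the deposited intensity table, so which gene they measure is uncertain.

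Between the genotypes, 0 of the 61 members were called by limma. In controls the background was 0.119% of all probes, 5 members had an unadjusted p under 0.05 against 6.46% of all probes, and the smallest adjusted p was 0.466, for Gpc3 at base 1787 (log2 difference KO minus WT 1.03, SE 0.27). In injured cartilage the background was 0.181%, 13 members had an unadjusted p under 0.05 against 12.6% of all probes, and the smallest adjusted p was 0.226, for Itgb2l at base 1225 (1.36, SE 0.36). For the interaction, which tests whether the injury change itself differs between the genotypes, the background was 0.0%, 6 members had an unadjusted p under 0.05 against 9.94% of all probes, and the smallest adjusted p was 0.312. The t-test called 0 probes of the whole table for genotype in either condition, Mapk9 included, and so bears on no member. With the replicate number as a block, Itgb2l at base 1225 was called higher in injured KO than in injured WT (adjusted p = 0.0287), as it was without injured WT replicate 1 (log2 difference 1.76, adjusted p = 0.0432). Those settings also raised the share called over all probes, to 0.895% with the block and 0.733% without that array, and the interaction with the block called 0.533% of all probes and 0 members.

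WT control replicate 3 held the highest WT muscle mean. Of the WT controls it also had the highest adipocyte marker mean (7.30 against 5.96 and 6.03) and the lowest neutrophil, erythroid, osteoblast and osteoclast marker means. Leaving this array out changed several of these comparisons, over the whole table as well as among the members. Without it, 412 of all probes (1.96%) were called for genotype in controls and 242 (1.15%) for the interaction. Itgb6 was then higher in KO controls by 2.27 at base 4455 (adjusted p = 0.000714), with detection on 1 of the remaining WT control arrays. At base 4579 neither remaining WT control array detected it, and it was at least 1.17-fold higher in KO controls (adjusted p = 0.00221). The fitted interaction was then significant for Itgb6 at base 4455 (-2.15, adjusted p = 0.0227) and base 4579 (-1.84, adjusted p = 0.0422) and for Itgae at base 3776 (-2.23, adjusted p = 0.032). All 3 of these probes were undetected on every injured array, and Itgb6 at base 4579 and Itgae at base 3776 also on the remaining WT controls, so no size of these differences can be given. Without that array the remaining WT control muscle means were 11.45 and 10.77, against 12.66 to 13.02 in KO controls.

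The neighbours of these receptors were taken from 3 lists of 48 genes, of which 44 were measured: matrix ligands, adhesion adaptors and kinases, and proteoglycan partners with heparan sulfate enzymes and sheddases. In WT 4 of the 44 genes rose and 2 fell, and in KO 7 rose and 6 fell, a gene counting where any of its probes was called. These are 13.6% and 29.5% of the measured genes, against 16.6% and 20.9% of all gene symbols of the table by the same count. Of the 14 matrix ligands, 2 rose and 2 fell in WT. Thbs1, which encodes thrombospondin 1, had a log2 fold change of 2.01 (SE 0.53, adjusted p = 0.0204), and Nid2, which links laminin to collagen IV, rose at both probes by 1.76 and 1.63. Its relative Nid1 had -0.96 (adjusted p = 0.00926) and -0.54 (adjusted p = 0.0765) in WT, not called, and fell at both probes in KO by 1.23 and 1.11 on the log2 scale. Tnc, tenascin C, a ligand of several integrins, fell at 4 of its probes by 1.43 to 2.04 on the log2 scale, and Ntn4, a laminin-related netrin, had -1.14 (adjusted p = 0.0157). Of the 19 measured adaptors and kinases only Zyx, zyxin of focal adhesions, was called in WT (log2 fold change 1.03, adjusted p = 0.00715), and of the 11 measured proteoglycan genes only Sdcbp2, a syntenin that binds syndecan tails, with a log2 fold change of 1.21 (SE 0.20, adjusted p = 0.00188). In KO, Nid2 (2.04 and 2.34), Thbs1 (2.70) and Tnc (-2.09 to -1.43) were called in the same directions, and Sdcbp2, undetected in KO controls, rose at least 2.503-fold (adjusted p = 5.31e-06). Zyx was higher there too (0.72, adjusted p = 0.0256) but under the fold limit, and Ntn4 had 0.27 and 0.59 at its probes, neither called. By list, 3 ligands rose and 4 fell in KO, 3 adaptors rose and none fell, and 1 proteoglycan gene rose and 2 fell. Of the adaptors, Lims2 was called at 1 of 3 probes (1.08, adjusted p = 0.00504). Tln1, or talin 1, rose at least 1.20-fold from KO controls without detection (adjusted p = 0.00438). Actn4, an alpha-actinin, was called at 1 of 3 probes, also undetected in KO controls, with a rise of at least 2.80-fold (adjusted p = 0.000298), and its other probes had 0.94 and 0.98, under the fold limit. Mmp14, a membrane-bound metalloproteinase, fell by 1.12 on the log2 scale (adjusted p = 0.00243). Fn1, the fibronectin bound by Itga5, was called in KO at 3 of 4 probes. The Fn1 probe at base 7355 gave 1.48 (adjusted p = 0.00583), and Fn1 was at least 1.13-fold higher at bases 5356 and 4028, which were undetected in KO controls, while the brightest probe at base 7050 had 0.94 (adjusted p = 0.00256). Vtn, vitronectin, fell at least 2.36-fold in KO (adjusted p = 1.63e-05). In WT no Fn1 or Vtn probe was called. The median log2 fold changes of the 3 lists were -0.07, 0.12 and -0.13 in WT and -0.17, 0.21 and 0.14 in KO, against -0.02 over all probes in each.

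Of the 40 genes, 26 had no called probe in any comparison. Their 35 probes had log2 fold changes from -0.85 to 1.20 in WT and from -0.96 to 0.86 in KO. Across the 61 probes, 34 were detected on all 12 arrays and 3 on fewer than 3. The array carries a further 41 probes with member names that are outside the normalized table. Of these, 36 were detected on no array and the rest on at most 2. They include all probes of Gpc2, Gpc4, Gpc5, Itga8, Itga9, Itgax and Itgb8 by name, detected on at most 1 array each.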

How the data were processed

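The 12 samples were grouped by their labels. The authors deposited log2 values of 21004 of the 45281 probes after background correction against negative controls and vsn normalization. They also deposited the uncorrected signal intensities with a detection p-value per probe, used here for detection and for other normalizations. Arrays give no read depth, and the 3 arrays per group limit the precision. Each probe was tested with limma 3.58.1 in R 4.3.3 (lmFit, eBayes) on the 6 arrays of each comparison, and the interaction on all 12. With 3 arrays against 3, exact permutation of the labels gives no two-sided p under 0.1.

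The members, gene lists and tests were chosen with earlier results of these data known. Genes with a called probe were described in full, the others by range, and of the lists the 5 largest called changes in WT, while Zyx, Nid1, Fn1, Vtn, Lims2, Tln1, Actn4 and Mmp14 were named after their values were seen. Symbols follow the normalized table. No coordinates are given, since no genome build is named there. Label codes run in consecutive sets by replicate number, and deviations from group means correlated from 0.153 to 0.390 over 18 same-number pairs and from -0.289 to 0.0825 over 36 others, so the numbers were treated as pairs in an alternative fit with a replicate block. Other alternatives were normexp with quantile normalization (offset 16), quantile normalization alone, centring of array medians, a filter for detection on 3 or more arrays, a common fit of all 12 arrays, the label code number as a block, the methods' t-test, the highest-mean probe per gene, no fold limit, and each array left out. The test was also run on simulated arrays with independent noise. Those arrays held neither the pairing nor the detection limit of the real data, so that run does not cover dim or paired probes.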

Additional observations from a re-analysis of the deposited data

Results flagged for a closer look

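The probe listed as LOC381924, which carries the gene ID of Itgad but falls outside the symbol rule and so outside the counts of the report, passed the threshold in both genotypes. It read 6.60, 7.28 and 6.14 in WT controls and 5.53, 4.70 and 5.27 in injured WT, and 7.25, 7.06 and 7.39 in KO controls and 4.78, 5.13 and 4.62 in injured KO. It was detected on all 6 control arrays and on no injured array. The fitted log2 fold change was -1.50 in WT (adjusted p = 0.00669 by limma) and -2.39 in KO (adjusted p = 5.25e-06), falls of at least 1.78-fold and at least 2.59-fold. In the deposited intensity table the same probe is named Itgad.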

How the results depend on the processing

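No called change reversed its direction under any alternative run. The 13 called probes in WT became 5 and the 19 in KO became 9 with quantile normalization without background correction, which called 5.43% and 8.36% of all probes, and the t-test gave 6 in WT and 15 in KO, with 7.73% and 15.9% of all probes. With the highest-mean probe per gene, 40 probes entered and 11 were called in KO, and without the fold limit 35 were called there, against 18.6% and 38.3% over the table. For the pathway lists the 6 genes called in WT became 3 with quantile normalization without background correction, 3 with the t-test and 11 without the fold limit, as the share of all probes went from 14.7% to 5.43%, 7.73% and 25.3%. Leaving out 1 array gave 9 to 17 called members in WT (13.3% to 16.3% of all probes) and 17 to 19 in KO (18.6% to 19.6%), 0 to 2 for genotype in controls (0.0809% to 1.96%), 0 to 1 for genotype post injury (0.110% to 0.733%), 0 to 3 for the interaction (0% to 1.15%), and 4 to 7 list genes. With the replicate number as a block, 15 members were called in WT (7 higher, 8 lower, against 14.95% of all probes), 19 in KO (18.7%), and 1 for genotype post injury, and apart from the calls named in the report and Mapk9 no other call changed. The Mapk9 difference in controls at base 4211 kept its value of -1.57 but missed the threshold with the block (adjusted p = 0.061) and with the t-test (adjusted p = 0.307), and it ranged from -1.70 to -1.50 with arrays left out, missing the threshold without WT control replicate 1 or any 1 KO control array. At base 900 the Mapk9 call held with the block and with each array left out, and missed the threshold with quantile normalization alone (adjusted p = 0.119) and the t-test (adjusted p = 0.488). The cause of these changes was not tested. With 3 arrays per group and many members near the detection limit, small changes of dim probes were not measurable here.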

Other observations

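The probe listed as 6720458D17Rik, a former name of Itga9 in RefSeq, was detected on all 12 arrays. It had a log2 fold change post injury of -0.73 (SE 0.19, adjusted p = 0.0184 by limma) in WT and -0.97 (SE 0.20, adjusted p = 0.00327) in Mapk9 KO, below the fold limit in both. Itga9 pairs with Itgb1 and binds tenascin C.

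Itgb7, the partner of Itga4 and Itgae, was higher post injury in every same-number pair of WT arrays and lower in every pair of KO arrays. The changes by pair were 0.35, 0.01 and 0.44 in WT and -0.02, -0.22 and -0.20 in KO, so some of these signs rest on almost no change. How many other probes show such a pattern was not counted. The log2 fold changes were 0.27 (SE 0.24) and -0.15 (SE 0.20), and the difference between genotypes was -0.41 (SE 0.31, adjusted p = 0.697), which was not significant.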
